A study of Mus musculus with 12 samples.

Results

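The 10 genes described here are retinal genes with some of the largest falls between 28 days (P28) and 12 months of age, studied in wild-type and Pilrb1/2 knockout mice. They were Duxbl1, Duxbl2, Duxbl3, Wdr63, Dnaic2, Rspo2, Gulp1, Marcksl1, Apobec2 and Tmem26, 10 of the 53028 genes listed. The genes were selected on their own age difference in these libraries, 12 months against P28 in each genotype, so that difference is described here and was not tested. Whole-retina poly(A) RNA had been sequenced in 12 libraries, 3 in each of 4 groups. The groups were wild type (Pilrb1/2+/+) at P28, knockout (Pilrb1/2 -/-) at P28, wild type at 12 months and knockout at 12 months. According to the series text Pilra as well as Pilrb1/2 was removed by CRISPR in C57BL/6J zygotes, and carriers were bred back to C57BL/6J, while the sample labels name Pilrb1/2 alone. Pilra and Pilrb1/2 encode paired immunoglobulin-like receptors. Sex is not labelled, nor is it stated that replicate libraries are from different mice, so a p-value here reflects library-to-library spread, which may be technical.

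The 10 genes belong to unrelated protein families. The Duxbl genes are tandem copies that encode double homeobox proteins, relatives of the DUX factors that switch on genes of the early cleavage-stage embryo. Wdr63 and Dnaic2, also called Dnai3 and Dnai2, encode intermediate chains of the axonemal dyneins that make motile cilia beat, whereas the connecting cilium of photoreceptors does not beat. Rspo2 encodes a secreted R-spondin that strengthens Wnt signalling by removing the ubiquitin ligases ZNRF3 and RNF43 from the cell surface. Gulp1 encodes an adaptor used in the engulfment of apoptotic cells, Marcksl1 an actin-binding relative of MARCKS abundant in growing neurites, Apobec2 a muscle-enriched member of the AID/APOBEC family, and Tmem26 a membrane protein known as a marker of beige fat cells.

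The 3 Duxbl genes lie on chromosome 14 of GRCm38, in the order Duxbl1 (ENSMUSG00000048502, chr14:25978577-25990088), Duxbl2 (ENSMUSG00000072675, chr14:26118349-26129763) and Duxbl3 (ENSMUSG00000072672, chr14:26257962-26269436), all on the plus strand. The start of their coding sequence is shown because a read from it fits all 3 copies. The 1050 coding bases of Duxbl1-201, Duxbl2-201 and Duxbl3-201 had 0 differing bases between copies in the GENCODE annotation. The stretch printed holds the first 120 coding bases, which span more than 1 exon (chr14:25983524-25984243 in Duxbl1), with the start codon in capitals:
Duxbl1, Duxbl2 and Duxbl3: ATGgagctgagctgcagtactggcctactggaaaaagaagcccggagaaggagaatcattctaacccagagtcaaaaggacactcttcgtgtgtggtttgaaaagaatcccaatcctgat
Over all annotated transcripts, 95.9% of the distinct 31-base words of Duxbl1, 100% of those of Duxbl2 and 93.4% of those of Duxbl3 occurred in another copy. Duxbl2 had 0 words of its own, Duxbl1 had 198 and Duxbl3 had 339. Duxbl2-202 and Duxbl3-202 (2248 bases) were identical in sequence, and so were Duxbl2-206 and Duxbl3-203 (956 bases). Each of these pairs had equal deposited values in all 12 libraries.

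Start-site regions from RefSeq (GRCm38.p6) were found for 6 of the 10 genes, Wdr63, Dnaic2, Gulp1, Marcksl1, Apobec2 and Tmem26. Those of the 2 dynein genes are shown because their products belong to the same machinery, and that of Marcksl1 as one of the most abundant of the 10 per length, with Gulp1, in P28 wild type. Each starts 250 bases before the RefSeq start site and ends where the gene body of the expression table begins. They cover chr3:146108131-146108286 on the minus strand for Wdr63, chr11:114727169-114727407 on the plus strand for Dnaic2 and chr4:129513331-129513580 on the plus strand for Marcksl1. Capitals mark matches to 4 motifs searched on both strands, GTTGCC (a half-site of RFX factors, which act on ciliary genes), TAATCC (the core bound by the photoreceptor factors CRX and OTX2), ATTGG (the CCAAT box read backwards) and TATAAA (the TATA box):
Wdr63: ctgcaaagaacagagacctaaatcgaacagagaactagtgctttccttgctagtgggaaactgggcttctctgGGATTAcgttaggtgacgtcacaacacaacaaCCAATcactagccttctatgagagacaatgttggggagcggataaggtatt
Dnaic2: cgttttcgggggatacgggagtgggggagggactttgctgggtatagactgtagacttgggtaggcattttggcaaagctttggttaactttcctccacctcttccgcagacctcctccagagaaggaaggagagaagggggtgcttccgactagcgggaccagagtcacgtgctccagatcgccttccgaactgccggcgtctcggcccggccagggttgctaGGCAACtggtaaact
Marcksl1: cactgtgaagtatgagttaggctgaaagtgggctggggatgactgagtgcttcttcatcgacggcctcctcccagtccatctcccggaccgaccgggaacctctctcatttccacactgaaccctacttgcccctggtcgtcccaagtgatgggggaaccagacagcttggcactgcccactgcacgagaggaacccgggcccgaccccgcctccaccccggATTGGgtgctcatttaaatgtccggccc
The matches did not overlap one another. The Wdr63 stretch held a TAATCC match on the reverse strand at position -177 from the RefSeq start and a CCAAT box at -145. In the same 156-base window, 4.10% and 20.9% of 32851 mouse promoters held these motifs. The Dnaic2 stretch held an RFX half-site on the reverse strand at -26, present in 9.89% of promoters in its 239-base window. Marcksl1 held ATTGG at -28, as did 33.8% of promoters on either strand in 250 bases. No motif of the 4 was present in all 3 stretches, and a match of letters does not show that a factor binds.

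Library depth, read back from the value of a single read, ran from 14.7 M reads in P28 knockout library 2 to 25.9 M reads. The unit is CPM, reads scaled to a common effective library size, and 3 reads, the smallest amount read as signal, were worth 0.111 to 0.192 CPM, a floor that covers counting error only. As a check of the labelled tissue, summed cone markers (10 genes) were at 962 to 1567 CPM and summed bipolar cell markers (10 genes) at 1468 to 2001 CPM over the 12 libraries. Summed lens markers, 19 genes led by crystallins, were at 5306 CPM in P28 knockout library 2 and 1961 CPM in P28 wild-type library 3, and at 11.6 to 738 CPM in the other 10. Female libraries by Xist over 100 CPM were P28 knockout 2 and 3 and 12-month wild type 1 and 2, so sex was unbalanced within each age. Within each genotype sex was also unbalanced between ages, with female libraries only at 12 months in wild type and only at P28 in knockout. Age and sex can therefore not be fully told apart in the age differences. At 12 months 6 of the 10 genes (Duxbl3, Wdr63, Dnaic2, Rspo2, Apobec2 and Tmem26) were under 1 CPM in all 6 libraries. They passed the expression filter, 1 CPM or more in 3 or more of the 12 libraries, through P28 alone.

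Duxbl1 and Duxbl3 had the largest differences of the 10 on the log2(CPM + 1) scale in both genotypes. By the ratio of means the largest fall of the 10 in wild type was that of Wdr63, given below. For Duxbl1 the P28 wild-type libraries gave 11.8, 13.2 and 11.7 CPM and the P28 knockout libraries 37.2, 8.38 and 47.0 CPM, against 0.877, 0.911 and 1.37 CPM with age in wild type and 0.36, 1.80 and 1.15 CPM with age in knockout. Every P28 library was above every 12-month library, and 2 of the 3 knockout libraries were far above wild type at P28. The mean was 11.6 times higher at P28 than at 12 months in wild type and 28.0 times in knockout, or -2.70 and -3.68 as 12 months minus P28 on the log2(CPM + 1) scale, which understates falls to levels near 1 CPM. Duxbl2 read 11.4, 16.7 and 19.7 CPM in the young wild-type retina and 40.4, 11.3 and 39.6 CPM in the young knockout. Its 12-month level was the highest of the copies, with 2.41, 2.37 and 2.66 CPM in wild type against 4.51, 2.40 and 2.63 CPM in knockout. Its log2 differences were -2.25 and -2.75. Duxbl3 read 14.9, 11.7 and 5.31 CPM (wild type) and 31.6, 11.7 and 42.9 CPM (knockout) at P28, then 0.617, 0.475 and 0.707 CPM and 0.704, 0.555 and 0.204 CPM, in the same order of genotypes, at 12 months. With log2 differences of -2.76 in wild type and -4.16 in knockout it ranked 7th and 3rd among the falls of all tested genes.

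Since most of their sequence is shared, the values of single copies depend on how reads were divided, and the 3 genes were also summed. In P28 wild type Duxbl2 and Duxbl3 ran in opposite order over the libraries, while their sum with Duxbl1 was steady at 38.0, 41.7 and 36.7 CPM. The sum was 109, 31.4 and 129 CPM in P28 knockout, 3.90, 3.76 and 4.74 CPM in 12-month wild type and 5.58, 4.75 and 3.98 CPM in 12-month knockout. The P28 level was therefore 9.39 times the 12-month level in wild type and 18.9 times in knockout, and the groups of different age did not overlap.

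The dynein intermediate chains were present at a few CPM at P28 and under 1 CPM at 12 months, where Wdr63 was close to the detection floor. Wdr63 (ENSMUSG00000043020, chr3:146040526-146108130, minus strand), a chain of an inner dynein arm, read 6.69, 5.47 and 4.32 CPM (wild type) and 6.77, 2.49 and 5.4 CPM (knockout) at P28. The 12-month readings were 0.15, 0.302 and 0.0765 CPM for wild type and 0.308, 0.261 and 0.0401 CPM for knockout, with 2 of these 6 libraries at or under 3 reads. The genotypes overlapped at both ages, and the log2 differences between ages were -2.45 and -2.22. The P28 mean of Wdr63 was 31.2 times the 12-month mean in wild type and 24.1 times in knockout, ratios that rest on few reads at 12 months. Dnaic2 (ENSMUSG00000034706, chr11:114727408-114757889, plus strand), a chain of the outer arm, read 6.49, 4.49 and 4.38 CPM (wild type) and 5.75, 2.55 and 4.53 CPM (knockout) at P28. Its 12-month readings, 0.953, 0.393 and 0.689 CPM and 0.611, 0.448 and 0.949 CPM, were all above the floor and overlapped between genotypes. The P28 mean was 7.54 times the 12-month mean in wild type and 6.39 times in knockout.

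Rspo2 (ENSMUSG00000051920, chr15:43020794-43170826, minus strand) read 7.01, 6.47 and 5.51 CPM (wild type) and 6.17, 2.78 and 8.01 CPM (knockout) at P28, and 0.652, 0.482 and 0.552 CPM and 0.702, 0.627 and 0.925 CPM, respectively, at 12 months. No 12-month library reached the lowest P28 library, and the P28 mean was 11.3 times the 12-month mean in wild type and 7.52 times in knockout. Of 3 annotated transcripts, coding Rspo2-203 carried nearly all of the signal, coding Rspo2-201 was listed at 0 in all libraries, and the retained-intron form Rspo2-202 was at 0.0369 RPKM or lower in P28 libraries.

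Gulp1 and Marcksl1 were the most abundant of the 10 taken singly and were still well detected at 12 months. The mean of the summed Duxbl genes in P28 wild type was 38.8 CPM, between Marcksl1 (27.4 CPM) and Gulp1 (42.3 CPM). In P28 knockout it was 90.0 CPM, above Marcksl1 (37.4 CPM) and Gulp1 (54.8 CPM). Gulp1 (ENSMUSG00000056870, chr1:44551511-44796838, plus strand) read 41.4, 43.5 and 41.9 CPM (wild type) and 59.6, 37.9 and 66.9 CPM (knockout) at P28. By 12 months wild type gave 12.0, 11.9 and 10.9 CPM and knockout 25.1, 30.6 and 19.9 CPM, so that the 12-month genotypes did not overlap. The log2 differences between ages were -1.78 in wild type and -1.07 in knockout, 32nd and 232nd among all falls, which places Gulp1 outside the strongest falls in knockout. Marcksl1 (ENSMUSG00000047945, chr4:129513581-129515985, plus strand) read 22.8, 27.8 and 31.6 CPM (wild type) and 49.1, 15.2 and 47.8 CPM (knockout) at P28. By 12 months wild type gave 6.45, 7.69 and 9.60 CPM and knockout 8.28, 8.85 and 8.01 CPM. The P28 mean was 3.47 times the 12-month mean in wild type and 4.46 times in knockout, and the 12-month genotypes overlapped.

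Apobec2 (ENSMUSG00000040694, chr17:48419231-48432930, minus strand) read 5.64, 4.99 and 4.66 CPM (wild type) and 7.08, 2.98 and 5.73 CPM (knockout) at P28, and 0.321, 0.237 and 0.76 CPM and 0.44, 0.104 and 0.287 CPM, respectively, at 12 months. The 12-month knockout value of 0.104 CPM was at or under 3 reads. A copy of Apobec2 on a patch scaffold carried the same value in every library, so each row held an equal share of the reads and the summed level, above 3 reads in all libraries, was 2 times that of the row. As Apobec2 is known from muscle, 18 skeletal muscle markers were read beside it: their sum was 4.48 to 11 CPM over the libraries, Myog was listed at 0 in both P28 groups, and only 3 of the 18 passed the expression filter. Tmem26 (ENSMUSG00000060044, chr10:68723646-68782650, plus strand) read 7.50, 8.15 and 8.19 CPM (wild type) and 17.1, 7.39 and 18.6 CPM (knockout) at P28, and 0.594, 0.641 and 0.772 CPM and 0.814, 0.542 and 0.368 CPM, respectively, at 12 months. Its P28 mean was 11.9 times the 12-month mean in wild type and 25 times in knockout, and as for Duxbl1 the P28 knockout libraries other than library 2 were far above wild type.

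**Figure D1:**
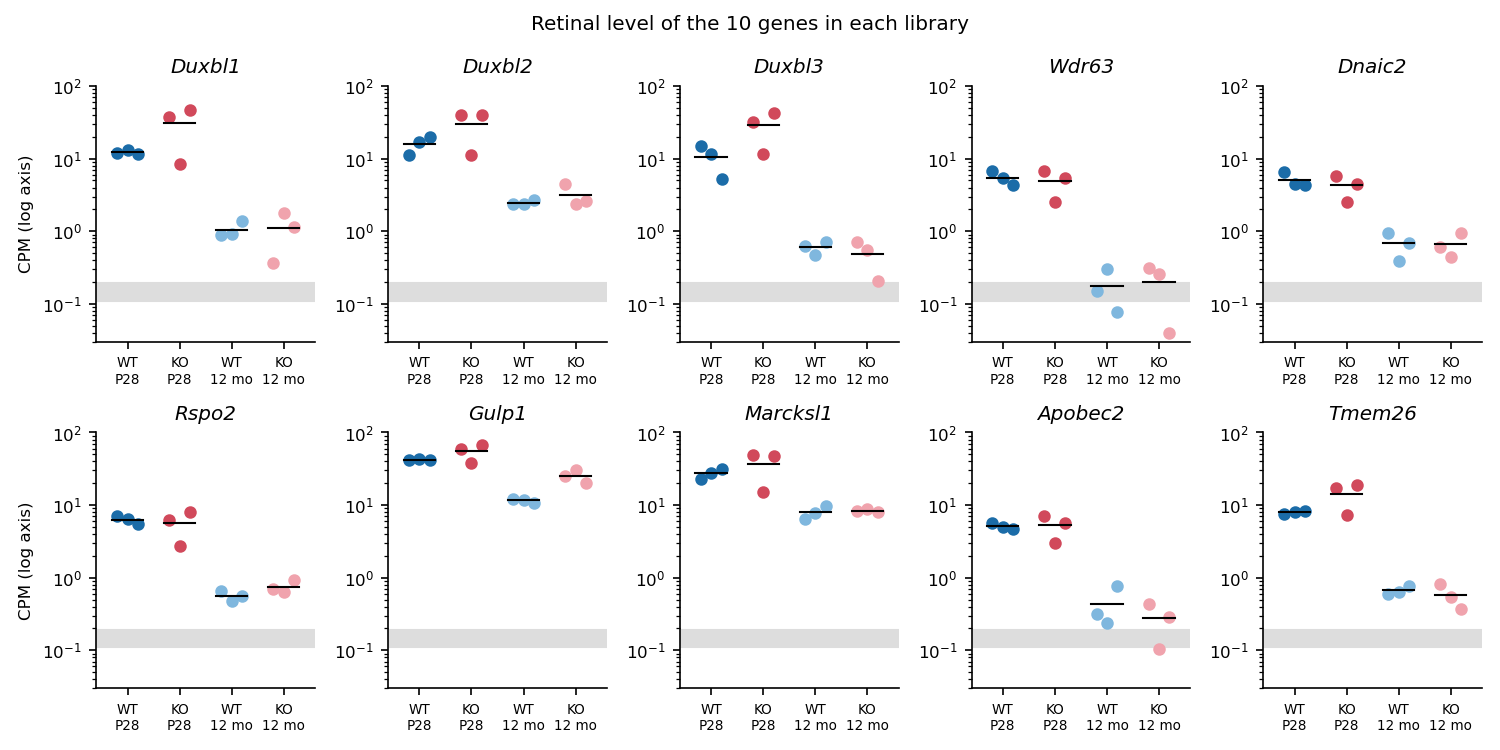
Level of each of the 10 genes in CPM on a log axis, 1 point per library and a bar at the mean of the 3 libraries of a group; WT is wild type, KO knockout, and the grey band is what 3 reads are worth over the libraries (0.111 to 0.192 CPM). In each gene the 6 P28 libraries lie above the 6 12-month libraries, and the middle point of the P28 knockout group, library 2, is its lowest.

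In all 10 genes every 12-month library was under every P28 library in both genotypes, a pattern that 16.0% of the 16486 tested genes had in wild type and 18.0% in knockout. As the genes were chosen on this contrast, nothing is read from that count. Over all tested genes limma, a linear model with moderated variances, called 1.75% lower and 3.65% higher at 12 months in wild type, and 13.9% lower and 13.3% higher in knockout (Benjamini-Hochberg adjusted p under 0.05). The 10 genes ranked 7 to 33 among the falls of tested genes in wild type and 3 to 232 in knockout, so other genes fell more than several of them. In bulk RNA, fewer cells of a type and less RNA per cell cannot be told apart. Summed ganglion cell markers (10 genes, of which 0 passed in wild type and 4 fell in knockout) were at 894 to 1033 CPM in P28 and 717 to 783 CPM in 12-month wild type, and at 722 to 1164 CPM in P28 and 800.0 to 879 CPM in 12-month knockout. Summed lens markers (17 tested, of which Crygb fell in both genotypes) were at 15.3 to 1961 CPM in P28 and 11.6 to 57.6 CPM in 12-month wild type, and at 44.8 to 5306 CPM and 16.2 to 738 CPM in knockout. Among the other marker lists, sums also did not overlap between ages for horizontal cells in wild type (439 to 546 CPM at P28 and 393 to 423 CPM at 12 months, 1 of 6 lower), microglia and macrophages in wild type (32.6 to 37.2 and 45.6 to 56.0 CPM, 2 of 8 higher), astrocytes in knockout (51.1 to 59.0 and 23.9 to 35.0 CPM, 2 of 4 lower) and erythrocytes in knockout (12.6 to 23.7 and 4.39 to 9.94 CPM, 2 of 5 lower). Lists whose sums overlapped between ages in knockout also held calls there. Lower were 6 of 10 endothelial and pericyte, 5 of 10 cone, 4 of 9 amacrine and 2 of 10 bipolar cell markers. Also lower in knockout were 2 of 8 microglia and macrophage, 1 of 6 horizontal cell and 1 of 3 skeletal muscle markers. Higher were 2 of 10 Mueller glia markers and 1 of 10 rod markers. The part of these levels in the falls was not tested.

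**Figure D2:**
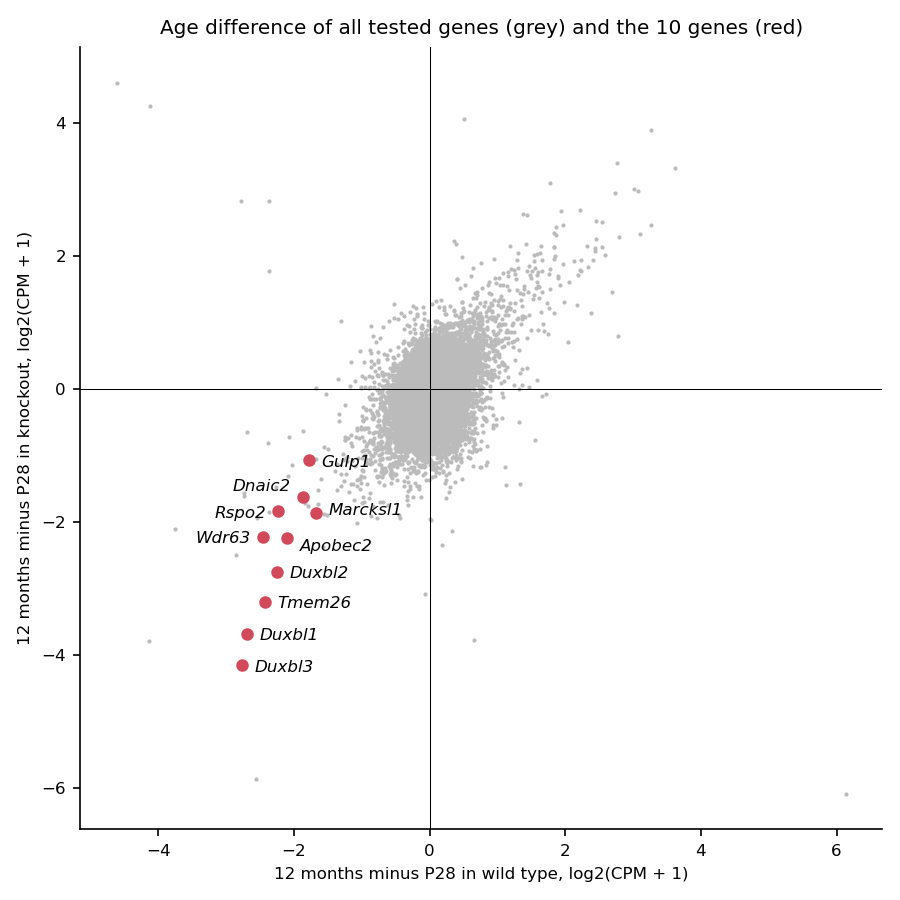
Difference between 12 months and P28 on the log2(CPM + 1) scale in wild type (horizontal axis) and knockout (vertical axis) for the 16486 tested genes in grey and the 10 genes in red. The 10 genes lie at the lower left, from Gulp1 (-1.78, -1.07) to Duxbl3 (-2.76, -4.16).

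Between genes, levels were compared as RPKM, which divides reads by transcript length, summed from the deposited transcripts. In P28 wild type Marcksl1 (17.4 ± 3.04 RPKM, SD, n = 3 as for all values here) and Gulp1 (16.2 ± 0.46) were highest and did not differ beyond their spread. Duxbl2 (8.33 ± 1.93), Duxbl3 (6.86 ± 3.10) and Duxbl1 (5.77 ± 0.424) followed as single copies. They share reads, so their places depend on how reads were divided. Duxbl3 overlapped both other copies, while Duxbl2 (6.19 RPKM or more) lay just above Duxbl1 (6.13 RPKM or less). Apobec2 (3.63 ± 0.324 for its chromosome row) came before Dnaic2 (2.70 ± 0.542), but with its patch copy it summed to 7.27 ± 0.649 RPKM, a place among the Duxbl genes. Of the rest, Dnaic2, Wdr63 (2.3 ± 0.381) and Rspo2 (2.08 ± 0.219) overlapped and Tmem26 (1.74 ± 0.104) was lowest. At 12 months in wild type Marcksl1 (4.89 ± 0.984) and Gulp1 (4.36 ± 0.193) again led, and Wdr63 (0.0754 ± 0.0479) was lowest.

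To ask whether the deletion bore on these genes, knockout was compared with wild type with limma on all 12 libraries. The comparison over both ages averages the differences at P28 and at 12 months. With equal spread in all groups it is uncorrelated with the age difference by which the genes were selected. Genes under 1 CPM in all 12-month libraries vary little there on the log2(CPM + 1) scale. Their average thus rests largely on P28 values, which entered the selection. Duxbl3, for instance, was at 1.28 at P28 and -0.12 at 12 months. Over both ages Gulp1 was higher in knockout (log2 difference 0.68 ± 0.13, SE, adjusted p = 0.00352) and was the 1 gene of the 10 to pass, against a background of 14.3% of tested genes higher and 20.8% lower. For the other 9 genes the log2 difference ran from -0.13 (Dnaic2) to 0.58 (Duxbl3), with adjusted p of 0.129 or more, and their 95% confidence intervals reached from -0.48 to 1.20.

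The comparisons within an age share libraries with the age difference that chose the genes, and their p-values do not allow for this. Gulp1 ranked 32nd among the falls in wild type and 232nd in knockout. Selection on a low 12-month wild-type level favours a higher knockout value at 12 months. At 12 months Gulp1 rose in knockout by 1.04 ± 0.19 on the log2 scale (adjusted p = 0.00306), all 3 knockout libraries lying above all 3 wild-type libraries. Of tested genes 16.1% were higher and 23.5% lower there. After removal of a GC and length trend the Gulp1 difference was 0.57 at 12 months (adjusted p = 0.0209) and 0.40 over both ages (adjusted p = 0.0148). The other 9 genes lay between -0.16 and 0.23 with adjusted p of 0.599 or more, but 6 of them were under 1 CPM in all 12-month libraries, where the log2(CPM + 1) scale can hardly show a difference. At P28 0 of 10 genes passed, with 1.0% of tested genes higher and 0.491% lower. Gulp1 itself was at 0.33 ± 0.19 at P28 (adjusted p = 0.329). Duxbl3 (1.28 ± 0.40) and Tmem26 (0.69 ± 0.26) had an unadjusted p under 0.05 and adjusted p of 0.107 and 0.152. The summed Duxbl genes gave 0.96 ± 0.38 at P28 (adjusted p = 0.167) and 0.56 ± 0.27 over both ages (adjusted p = 0.115).

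The P28 result rested on P28 knockout library 2. This library was the lowest of its group in 10 of 10 genes, as it was in 39.7% of tested genes, and its log2 difference from the mean of the other P28 knockout libraries had a median of -1.13 over the 10 and 0.0056 over all tested genes. Relative to the mean of knockout libraries 1 and 3 it held 0.199 of the Duxbl1 level, 0.314 of Marcksl1, 0.414 of Tmem26 and 0.599 of Gulp1. Leaving out the lowest knockout library raises the knockout mean of all 10 by construction, and P28 levels entered the selection of the genes, so the fit without it shows only how far the P28 values rest on it. In that fit 6 of 10 genes, Duxbl1, Duxbl2, Duxbl3, Gulp1, Marcksl1 and Tmem26, passed at P28 (log2 differences of 0.57 to 1.80, adjusted p of 0.00347 to 0.0342), the Duxbl copies sharing their reads, where 8.52% of tested genes were called in either direction. The same 6 passed over both ages, where 45.9% of tested genes were called. Wdr63, Dnaic2, Rspo2 and Apobec2 did not pass without it, with P28 differences of 0.14, 0.016, 0.14 and 0.28.

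Library 2 was the shallowest library, and its marker levels stood apart too. Beside 5306 CPM of lens markers, against 150 and 44.8 CPM in knockout libraries 1 and 3, it held 722 CPM of ganglion cell markers against 1108 and 1164 CPM, 1044 CPM of amacrine markers against 1360 and 1400 CPM, and 357 CPM of endothelial and pericyte markers against 472 and 494 CPM. Cone markers were at 1349 CPM against 1139 and 1042 CPM. The part of these levels in the results was not tested. P28 wild-type library 3, the second richest in lens markers, was the highest of its group in 3 genes (Duxbl2, Marcksl1 and Tmem26), the lowest in 6 and between the others in Gulp1. Leaving out both lens-rich libraries left 6 genes that passed over both ages, where 43.2% of tested genes were called, and 5 at P28, where 4.65% were called.

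**Figure D3:**
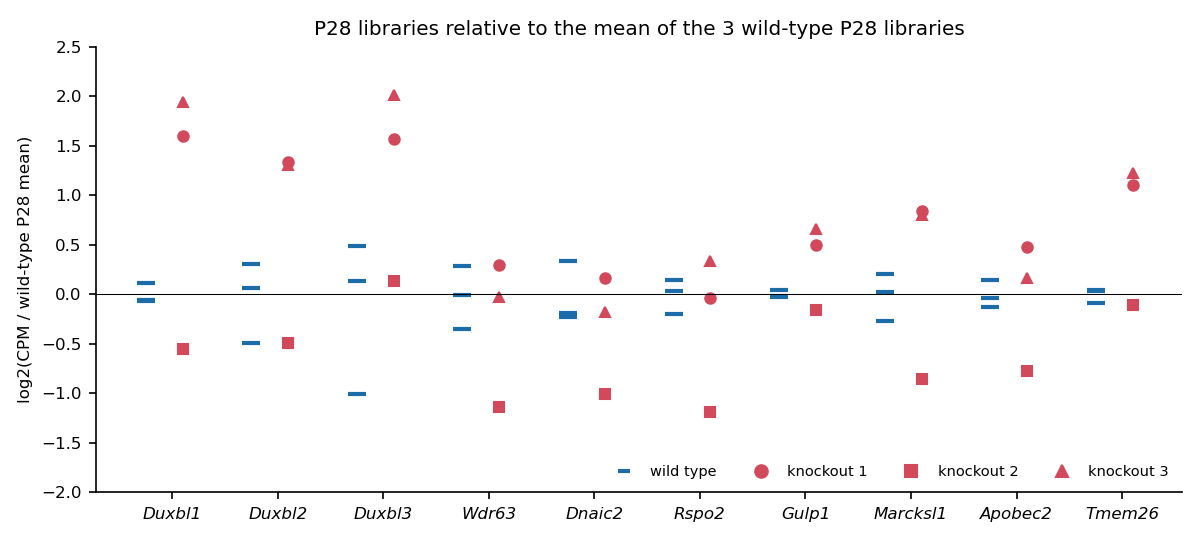
P28 level of each gene in each library, as log2 of CPM over the mean of the 3 wild-type P28 libraries, with blue dashes for wild type and red symbols for knockout libraries 1, 2 and 3. Knockout library 2 (squares) is the lowest knockout library in all 10 genes, and libraries 1 and 3 are above every wild-type library in the Duxbl genes, Gulp1, Marcksl1 and Tmem26 and, narrowly, in Apobec2.

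**Figure D4:**
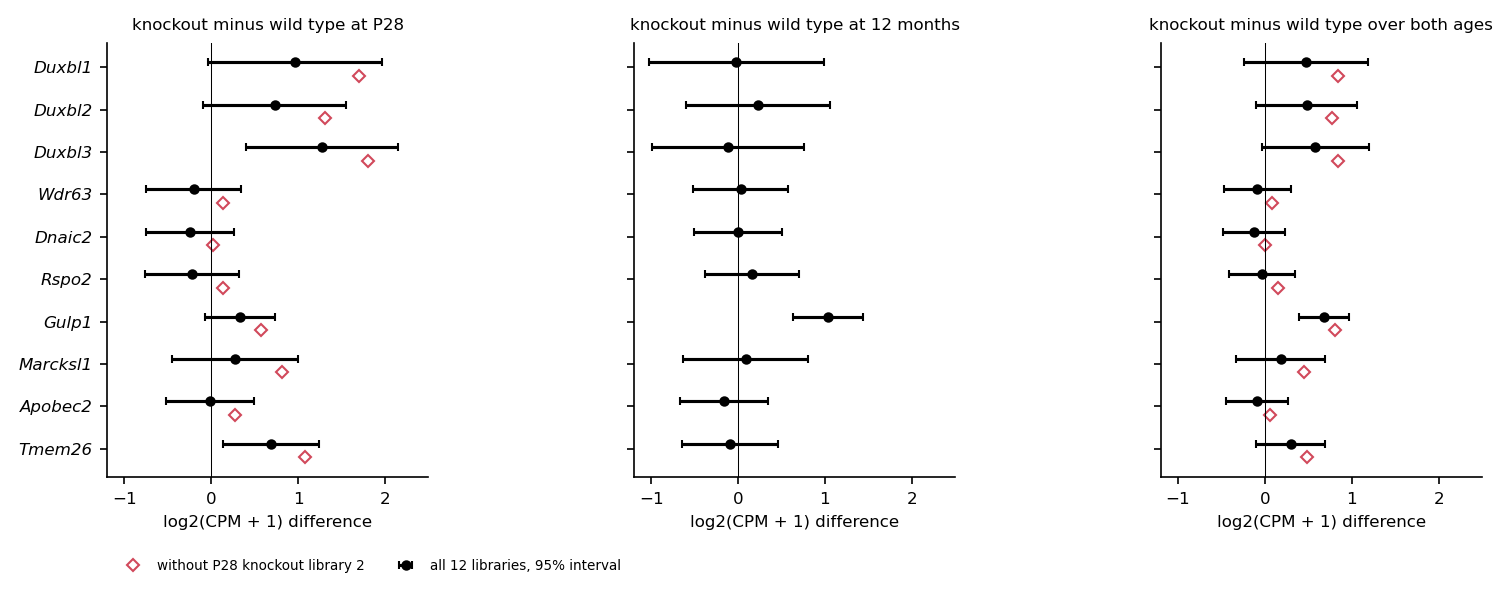
Knockout minus wild type on the log2(CPM + 1) scale for each gene within each age and averaged over both; black points with bars are the estimate and its 95% confidence interval from 12 libraries, open red diamonds, drawn where P28 libraries enter, the estimate without P28 knockout library 2. Of the intervals over both ages that of Gulp1 excludes 0, from 0.40 to 0.97.

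Gulp1 was also read by transcript, each as a share of the gene's RPKM. At P28 coding Gulp1-206 made up 65.6 ± 3.8% of the Gulp1 RPKM in wild type and 68.1 ± 12.8% in knockout. At 12 months its share was 29.0 ± 11% and 42.2 ± 4.66%. In 12-month wild type coding Gulp1-201 was at 1.5, 1.93 and 0.943 RPKM, and in 12-month knockout it was at 0.0464, 0.614 and 0 RPKM. Gulp1-202, annotated as a target of nonsense-mediated decay, was at 0.987, 0.762 and 1.27 RPKM in 12-month wild type and at 3.84, 6.22 and 4.01 RPKM in 12-month knockout. As a share of the gene, Gulp1-201 was at 33.1% in wild type and 1.81% in knockout, and Gulp1-202 at 23.2% and 47.6%. In both transcripts the shares of the 12-month genotypes did not overlap (exact permutation p = 0.1, two-sided, the smallest that 3 against 3 libraries allow; adjusted p = 0.3 over the 6 transcripts). The highest transcripts of 12-month knockout were thus one annotated as decayed and coding Gulp1-206. At P28 the Gulp1-202 share was 6.84 ± 1.53% in wild type and 10.5 ± 6.77% in knockout, where it reached 15.7% in library 3. Transcript estimates that share exons depend on how reads were divided.

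**Figure D5:**
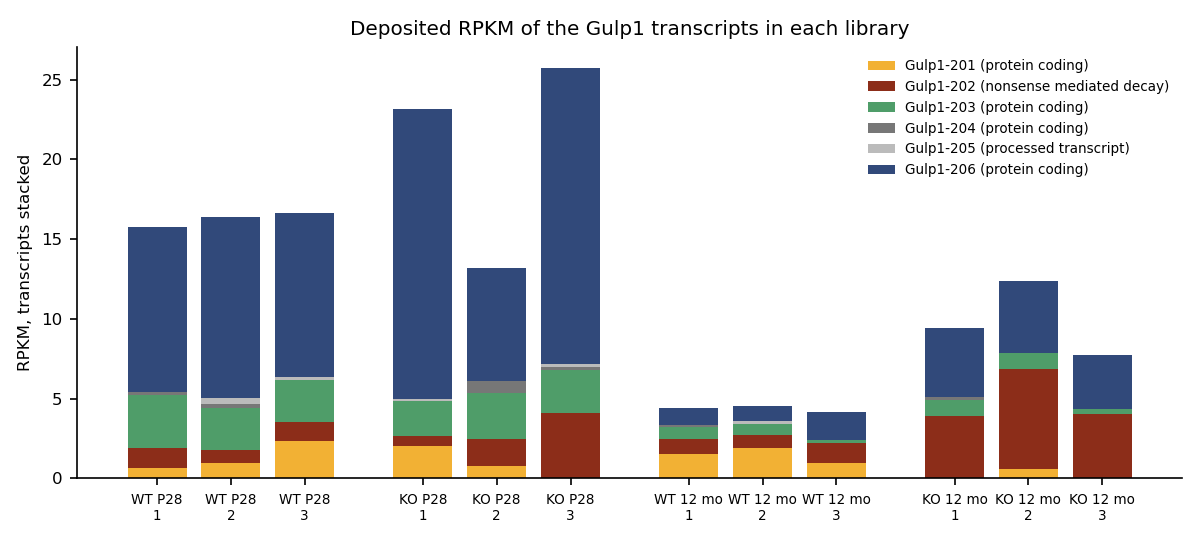
Deposited RPKM of the 6 annotated Gulp1 transcripts, stacked for each library, with WT for wild type and KO for knockout. Gulp1-206 (dark blue) is the largest share in all P28 libraries, and Gulp1-202 (dark red) is at 1.27 RPKM or less in 12-month wild type and at 3.84 RPKM or more in 12-month knockout.

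To place the genes in their pathways, other genes of the same pathways were tested between ages. Of 150 such genes, 6 fell and 8 rose at 12 months in wild type, where 1.75% and 3.65% of all tested genes did. In knockout 40 of the 150 fell and 13 rose, where 13.9% and 13.3% of all tested genes did. The same shares over all tested genes stand beside each list below. The falls of the 150 genes in wild type numbered 3 without 12-month wild-type library 1 and 15 without P28 knockout library 2. Those in knockout numbered 26 without 12-month knockout library 2. Of 43 tested genes of the axonemal dyneins and motile cilia, 2 fell and 2 rose in wild type and 11 fell and 3 rose in knockout. Dynlrb2, a dynein light chain, fell in both genotypes, from 2.09 ± 0.165 to 0.0138 ± 0.0238 CPM in wild type (log2 difference -1.61, adjusted p = 3.0e-05) and from 1.84 ± 0.505 to 0.0992 ± 0.0396 CPM in knockout (-1.35, adjusted p = 6.82e-05). Both 12-month means were under the worth of 3 reads (0.111 to 0.192 CPM), so Dynlrb2 passed the expression filter through P28 alone. A gene kept in that way could be called lower at 12 months but hardly higher, which its p-values do not allow for. Ccdc39, which sets the spacing of inner arms along the axoneme, fell as well (-0.59 and -1.03, adjusted p = 0.00795 and 8.38e-05). The heavy chains Dnah7b and Dnah7c, near-identical copies whose reads may be divided between them, rose in both genotypes (1.23 and 0.99, and 1.57 and 1.53). Dnaic1, the other intermediate chain of the outer arm, was at 2.47 CPM in P28 and 2.25 CPM in 12-month wild type (adjusted p = 0.863) and at 1.71 and 1.63 CPM in knockout (adjusted p = 0.97). The ciliary transcription factor Foxj1 was at 0.559 CPM or less in P28 group means and did not pass the expression filter. The list's median log2 difference was -0.0024 in wild type and -0.17 in knockout, against 0.011 and -0.043 for all tested genes.

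Of 45 tested genes of R-spondin and Wnt signalling, 1 fell and 3 rose in wild type and 8 fell and 5 rose in knockout. Rnf43, the ligase that R-spondins remove, rose from 0.856 ± 0.674 to 7.24 ± 1.40 CPM in wild type (log2 difference 2.19, adjusted p = 0.00019) and from 0.644 ± 0.368 to 4.38 ± 0.967 CPM in knockout (1.72, adjusted p = 0.000679). Fzd4, a receptor for Norrin and Wnt in retinal vessels, rose by 0.37 and 0.41 (adjusted p = 0.0353 and 0.00821). Kremen1, a receptor for the Wnt inhibitors of the Dkk family, named after its values were seen, rose by 0.53 in wild type and fell by 0.41 in knockout (adjusted p = 0.0466 and 0.0463), but the difference of these differences did not pass (-0.94 ± 0.20, adjusted p = 0.0624). The R-spondin receptors Lgr4 (-0.27 in wild type and 0.11 in knockout) and Lgr5 (-0.10 and 0.00046) and the related ligase Znrf3 (0.087 and 0.30) did not pass in either genotype. The median was -0.087 in wild type and -0.18 in knockout.

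Of 28 tested genes for engulfment of apoptotic cells, 0 fell and 3 rose in wild type, and 4 fell and 5 rose in knockout. Cd36, a scavenger receptor, rose by 1.18 and 2.16, Abca1, a cholesterol exporter, by 1.40 and 1.09, and Pros1, a bridging ligand of the TAM receptors, by 0.59 and 0.68, in wild type and knockout. Megf10 and Lrp1, receptors linked to the GULP1 adaptor, had log2 differences of 0.094 and 0.73 in wild type and 0.25 and -0.30 in knockout, none of which passed. The list's median was 0.10 in wild type and -0.13 in knockout.

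Of 31 tested genes of the MARCKS family and the growth cone, 3 fell and 0 rose in wild type and 17 fell and 0 rose in knockout. Nrep, a protein of growing and regenerating neurons, fell in both (-1.22 and -1.08, adjusted p = 0.0011 and 0.00131), as did Dpysl3, a collapsin response mediator (-0.47 and -0.57, adjusted p = 0.0239 and 0.00291). Marcks itself had log2 differences of -0.64 and 0.058 (adjusted p = 0.296 and 0.905). In knockout the largest fall of the list was that of the tubulin gene Tubb2b (-1.45, adjusted p = 0.000947), named after the values were seen. The list's median was -0.30 in wild type and -0.56 in knockout, beside the ganglion cell marker levels given above, whose part here was not tested. Only 1 of 21 listed DUX genes and their early-embryo targets passed the expression filter, Sp110, and 14 were at 0 in all libraries, among them Zscan4c. In the AID/APOBEC family Apobec1 and Apobec3 were tested, and neither passed in either genotype.

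Genes next to the 10 were tested to see whether whole regions moved. Of 79 tested genes within 500 kb, 2 fell and 4 rose in wild type, where 1.75% and 3.65% of all tested genes did. In knockout 13 of the 79 fell and 14 rose, where 13.9% and 13.3% of all tested genes did. These counts are near the shares over all tested genes, so no change of whole regions is read from them. The falls of these neighbours in wild type numbered 6 without P28 knockout library 2 and those in knockout 8 without P28 knockout library 1. Tmem254c, which lies between Duxbl1 and Duxbl2 and has near-identical copies Tmem254a and Tmem254b in the cluster, fell in both genotypes (-0.77 and -1.95, adjusted p = 0.0365 and 4.01e-05). It went from 8.14 ± 0.66 to 4.35 ± 0.1 CPM in wild type and from 9.60 ± 1.02 to 1.83 ± 0.812 CPM in knockout, and it was at 9.61, 8.58 and 10.6 CPM in the P28 knockout libraries. Its copies were lower in library 2 of that group, Tmem254b at 16.1, 8.20 and 16.3 CPM and Tmem254a at 5.55, 1.89 and 5.08 CPM. A930033H14Rik, 427112 bases from Tmem26, fell in both (-1.31 and -1.28, adjusted p = 0.000453 and 0.000314). Spata1 near Wdr63 (0.62 and 0.93), Rab37 near Dnaic2 (0.93 and 0.64), Zbtb8a near Marcksl1 (1.25 and 0.86) and Arid5b near Tmem26 (0.41 and 0.32) rose in both genotypes.

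The tested genes whose levels ran closest to each of the 10 were found by Pearson's r of log2(CPM + 1) over the 12 libraries, which share the age groups and library 2. Dynlrb2 was the closest to Wdr63 (r = 0.987), Dnaic2 (r = 0.975) and Rspo2 (r = 0.991) and the second closest to Apobec2 (r = 0.979). Mylk, a myosin light chain kinase, was the closest to Apobec2 (r = 0.988) and among the closest 3 of Wdr63, Dnaic2 and Tmem26, with group means of 136 and 157 CPM at P28 and 58.8 and 52.4 CPM at 12 months in wild type and knockout. Serinc5 was the closest to Tmem26 (r = 0.984) and the second closest to Duxbl1 and Duxbl3. Its P28 mean was 89.9 ± 22.2 CPM in knockout and 64.5 ± 3.37 CPM in wild type. Ccdc187 was the closest to Duxbl1 (r = 0.989), Rgs4 to Duxbl2 (r = 0.983) and Neu3 to Duxbl3 (r = 0.983). Cntn1, an axonal adhesion molecule, was the closest to Gulp1 (r = 0.978), and Rnd3, a regulator of the actin cytoskeleton, to Marcksl1 (r = 0.983). The closest 3 also held Prrg3 (Duxbl1), Myocd and Cdh8 (Duxbl2), Ccdc187 (Duxbl3), Mc1r (Wdr63), Pou4f3 (Dnaic2 and Rspo2), Dusp22 (Rspo2 and Marcksl1), Amer2 and Ccn4 (Gulp1), Grip1 (Marcksl1) and Kirrel (Apobec2 and Tmem26), with r of 0.965 to 0.982.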

How the data were processed

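Poly(A) RNA of mouse retina was measured in 12 libraries. Per the submitters' processing notes and the series text, kallisto 0.45.0 with Ensembl 102 gave transcript counts, tximport 1.30.0 gave gene counts and edgeR 4.0.3 scaled them. The text names a human genome, but the identifiers are mouse: 51903 of 53028 genes were found in GRCm38 GENCODE M21, and all 10 members had equal coordinates there. The deposited gene table holds a signal, CPM divided by TMM-scaled library size and not logged. The deposited transcript table holds RPKM. Depth was read back from the most frequent smallest value of each library, and 11.0 to 28.4% of low values were whole reads to within 0.01, so no count model was used.

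The 16486 genes that reached 1 CPM in 3 or more libraries were put on the log2(CPM + 1) scale. limma 3.58.1 (R 4.3.3) fitted 4 group means with a variance trend, and Benjamini-Hochberg adjusted p-values were read at 0.05. The 10 genes, the pathway lists and the marker lists were chosen with earlier results of these data known, and the age difference of the 10 genes was therefore not tested. Beside the 10, the genes named are those of each list and of the neighbours that passed in both genotypes in the same direction, up to 4 partners of a member per list, and the 3 genes most correlated with each member. Kremen1, Tubb2b and the copies of Tmem254c were named after their values were seen. Alternatives were 2 pseudocounts, 2 filters, 2 scalings, summed RPKM, a replicate block, a sex term, GC and length trend removal (98.7% of tested genes have both), only the groups compared, robust variances and leaving out each library. After the data were seen, a fit without both lens-rich libraries and one with shared-read copies summed were added. The fit was tested on simulated data. Sequences came from GENCODE M21 transcripts and RefSeq (GRCm38.p6). Python 3.11.15, pandas 2.3.3 and matplotlib 3.10.9 were used. Raw reads were not analysed here.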

Additional observations from a re-analysis of the deposited data

Results flagged for a closer look

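A copy of Apobec2 on a patch scaffold, outside the chromosome rows described above, held a value above 3 reads at P28. Its mean was 5.09 CPM in P28 wild type and 5.26 CPM in P28 knockout, equal to the chromosome row in each of the 12 libraries, so that reads fitting both copies were divided between them. With the copies summed, the log2 difference of 12 months minus P28 was -2.61 in wild type and -2.84 in knockout, against -2.10 and -2.24 for the chromosome row alone.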

How the results depend on the processing

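The scale moved the age difference: the median over the 10 genes, -2.24 in wild type and -2.23 in knockout, was -3.33 and -3.46 with a pseudocount of 0.1, -1.26 and -1.25 with 5, and, in wild type, -2.02 with a sex term and -1.66 with summed RPKM. Leaving out 1 library gave -2.27 to -2.21 in wild type and -2.55 to -2.0 in knockout. No value changed direction in 514 refits of single genes between ages, while 53 of 771 refits of genotype differences changed sign, none of them past the threshold before or after. Of the 10, the number that passed between genotypes was 1 to 6 over both ages and 0 to 6 at P28 when 1 library was left out (6 without P28 knockout library 2), 6 and 5 without both lens-rich libraries, and 1 at 12 months throughout. Calls over all tested genes rose too, to 45.9% over both ages and 8.52% at P28 without P28 knockout library 2, and to 43.2% and 4.65% without both. A CPM filter of 5 removed Dnaic2.

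Pathway genes lower in wild type (6) numbered 12 after GC and length trend removal, 3 with no filter, 22 with only the groups compared, 10 with quantile scaling, 2 with a sex term and 3 to 15 with 1 library left out, and those higher (8) numbered 15 with only the groups compared, 5 with a sex term and 5 to 11. In knockout those lower (40) numbered 25 after trend removal, 15 with only the groups compared and 26 to 44, and those higher (13) 11 to 18. Neighbours lower in wild type (2) numbered 5 after trend removal, 1 with no filter, 9 with only the groups compared, 1 with a pseudocount of 0.1 and 1 to 6 with 1 library left out, and those higher (4) 2 with a sex term and 3 to 5. In knockout 8 and 6 neighbours were lower and higher with only the groups compared (13 and 14), and 8 to 16 and 10 to 17 with 1 library left out. The cause was not tested. Among the fits that left out 1 library, fewest wild-type calls came without 12-month wild-type library 1 and most without P28 knockout library 2. With the replicate number as a block, 1 neighbour was lower in wild type and the Gulp1 difference kept its side of the threshold (adjusted p = 0.00801 over both ages). Same-numbered libraries did not deviate together (r of -0.357 to 0.309, over 0.1 in 4 of 18 pairs), so the numbers do not pair them. Wdr63 at 12 months, near 3 reads, is limited by depth, and so is the Apobec2 row, whose reads are divided with its copy.

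Of the genotype differences (log2, knockout minus wild type) that changed sign, those over both ages became 0.021 (Wdr63), 0.061 (Rspo2) and 0.0059 (Apobec2) with quantile scaling, 0.15 (Dnaic2) and 0.13 (Apobec2) after trend removal, 0.038 (Rspo2) with a pseudocount of 0.1, and 0.015 (Wdr63), 0.11 (Rspo2) and 0.031 (Apobec2) without both lens-rich libraries. At 12 months Duxbl1 became 0.0067 with median-of-ratios scaling, 0.00599 with a pseudocount of 5, 0.071 with quantile scaling, 0.16 with the copies summed and 0.018 with summed RPKM. The sex term gave -0.10 (Duxbl2), -0.15 (Wdr63) and -0.32 (Marcksl1), quantile scaling 0.013 (Duxbl3), 0.12 (Dnaic2) and 0.034 (Tmem26), median-of-ratios scaling 0.013 (Dnaic2), and trend removal 0.45 (Dnaic2), 0.18 (Apobec2) and 0.081 (Tmem26). At P28 Rspo2 became 0.056 and Apobec2 0.23 without both lens-rich libraries, and Apobec2 0.086 after trend removal, 0.00397 with a pseudocount of 5, 0.044 with quantile scaling and 0.35 with a sex term. With 1 library left out the ranges that crossed 0 were, over both ages, -0.21 to 0.083 (Wdr63), -0.23 to 0.0055 (Dnaic2), -0.16 to 0.15 (Rspo2) and -0.20 to 0.057 (Apobec2). At 12 months they were -0.26 to 0.27 (Duxbl1), -0.22 to 0.028 (Duxbl3), -0.034 to 0.13 (Wdr63), -0.13 to 0.11 (Dnaic2), -0.034 to 0.22 (Marcksl1) and -0.20 to 0.0049 (Tmem26). At P28 they were -0.44 to 0.14 (Wdr63), -0.45 to 0.016 (Dnaic2), -0.49 to 0.14 (Rspo2), -0.0035 to 0.81 (Marcksl1) and -0.23 to 0.28 (Apobec2). The cause was not tested.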
